A study of Homo sapiens with 9 samples.

Results

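The 10 genes described here encode enzymes and binding proteins of DNA methylation and chromatin silencing: DNMT1, UHRF1, DNMT3A, DNMT3B, TET1, TET2, TET3, EZH2, SMCHD1 and CTCF. They were chosen by name as candidate regulators of silenced gene clusters, with earlier results of these data known. All 10 were found among the 26364 genes counted and among the 13704 with enough counts to be tested. The cells were MDA-MB-231, a human triple-negative breast cancer line, stably carrying an shRNA. The 3 groups were control cells (shNT, 1 clone with a control shRNA) and 2 GLO1-silenced clones, shGLO1#1 and shGLO1#2, with 3 RNA libraries each. GLO1 encodes glyoxalase 1, the enzyme that detoxifies methylglyoxal (MG). With 1 line per condition, the p-values tell only of the spread between the 3 libraries of each line, and the effects of silencing and of the line itself cannot be told apart.

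In mammalian cells DNMT3A and DNMT3B place new methyl groups on cytosines of CpG dinucleotides, and UHRF1 guides DNMT1 to newly copied DNA so that the pattern is kept through division. The TET enzymes oxidise 5-methylcytosine, the first step of active demethylation, with 2-oxoglutarate as a cofactor. EZH2 methylates lysine 27 of histone H3 within Polycomb repressive complex 2 (PRC2), SMCHD1 is a silencing protein of the inactive X chromosome and of clustered genes, and CTCF binds DNA at domain boundaries, at some sites only when the site is not methylated.

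The promoters of DNMT3A and TET1, the members called and over 2-fold in either clone against shNT, are shown first. DNMT3A passed 2-fold in both clones. TET1 passed it only in shGLO1#1, and rests on 9 to 16 counts per shNT library. The sequences come from RefSeq (GRCh38.p14), cover 250 bases before to 50 bases after a transcription start, and read 5′ to 3′ on the gene's strand with each CpG in capitals. Each gene has several annotated starts, and the window with the most CpG is shown for each.

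DNMT3A promoter, chr2:25341876-25342175, minus strand: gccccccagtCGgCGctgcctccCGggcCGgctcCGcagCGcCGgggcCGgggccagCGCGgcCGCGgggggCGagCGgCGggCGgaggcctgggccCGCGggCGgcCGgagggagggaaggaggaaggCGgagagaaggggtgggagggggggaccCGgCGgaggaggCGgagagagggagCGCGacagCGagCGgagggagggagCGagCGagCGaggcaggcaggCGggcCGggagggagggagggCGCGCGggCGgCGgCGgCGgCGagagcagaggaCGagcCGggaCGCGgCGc

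TET1 promoter, chr10:68600224-68600523, plus strand: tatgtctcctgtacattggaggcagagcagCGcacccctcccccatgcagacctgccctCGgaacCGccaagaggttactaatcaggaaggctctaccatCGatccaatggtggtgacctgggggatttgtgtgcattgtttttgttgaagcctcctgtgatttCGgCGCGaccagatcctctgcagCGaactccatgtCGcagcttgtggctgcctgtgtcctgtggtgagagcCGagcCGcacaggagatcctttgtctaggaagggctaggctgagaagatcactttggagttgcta

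The DNMT3A window holds 46 CpG, more than 97.1% of 35116 promoter windows of the same length, whereas the TET1 window holds 11, below the median of 14. The other DNMT3A starts hold 18 to 28 CpG and the other TET1 starts 6 and 10. The TET1 window shown belongs to a start inside the gene as annotated in GENCODE 29 (chr10:68560656-68694482). The window nearest to the beginning of the gene, chr10:68560087-68560386, is the one with 10 CpG. The counts are per gene and do not tell which start was used, and DNA methylation was not measured in these libraries.

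The shNT libraries held GLO1 mRNA at 317 ± 5.63 CPM (a count scaled by the depth of its library), and the clones at 65.4 ± 0.955 (shGLO1#1) and 14.7 ± 0.760 CPM (shGLO1#2), each over 3 libraries with their SD, so that no library went against its label. Libraries held 15314238 to 18495576 gene counts. Of the defining markers, VIM (vimentin), high in this mesenchymal line, was at 3158 to 4144 CPM by group, while ESR1 and PGR, the hormone receptors that triple-negative cells lack, were at or below 0.255 CPM by group. KRT19, a luminal keratin, was present at 413 to 447 CPM by group. Among genes of other cell types, the leukocyte gene PTPRC was higher in shNT (8.37 CPM) than in shGLO1#1 (1.21) or shGLO1#2 (2.57). The summed level of 4 leukocyte markers ranged from 6.65 to 9.68 CPM in shNT, from 1.25 to 2.11 in shGLO1#1 and from 2.35 to 3.60 in shGLO1#2. The summed level of 3 endothelial markers was 0.782 to 1.28, 2.51 to 3.27 and 3.07 to 5.85 CPM in the same order, and their part in the results was not tested. PECAM1 made up most of the endothelial sum, with group means of 0.856 (shNT), 2.71 (shGLO1#1) and 3.21 CPM (shGLO1#2). VWF was lower, at 0.144, 0.214 and 0.841 CPM, and CDH5 was at or below 0.0592 CPM by group. The paper counts PECAM1 among the genes that SMAD1 regulates in GLO1-depleted MDA-MB-231 cells. The presence of other cell types was not tested. In such bulk RNA, fewer cells of a type and less RNA per cell cannot be told apart.

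Of the 10 members, 6 passed the test in shGLO1#1 against shNT (edgeR quasi-likelihood test, Benjamini-Hochberg adjusted p under 0.05 over all genes tested), at a background of 45.7% of all genes tested. The 4 higher members were DNMT3A, TET1, TET3 and TET2 (background of higher calls 22.6%), and the 2 lower were CTCF and DNMT1 (background 23.1%). In shGLO1#2 against shNT 5 members passed, at a background of 38.1%. DNMT3A, TET1, DNMT3B and TET3 were the 4 higher (background 18.3%) and SMCHD1 the 1 lower (background 19.8%). Over 2-fold, 2 members were called in shGLO1#1, DNMT3A and TET1, beside 8.73% of all genes. In shGLO1#2 this held for 1 member, DNMT3A, beside 7.68% of all genes. The median log2 fold change of the 10 members was 0.05 in shGLO1#1 and 0.12 in shGLO1#2, and that of all genes tested was 0.00 in both. With so many genes called, the shares of members called were not far from the background. The share of all genes whose groups do not overlap was not counted. Where groups of a member are said below to be separate, this describes its libraries only.

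**Figure D1:**
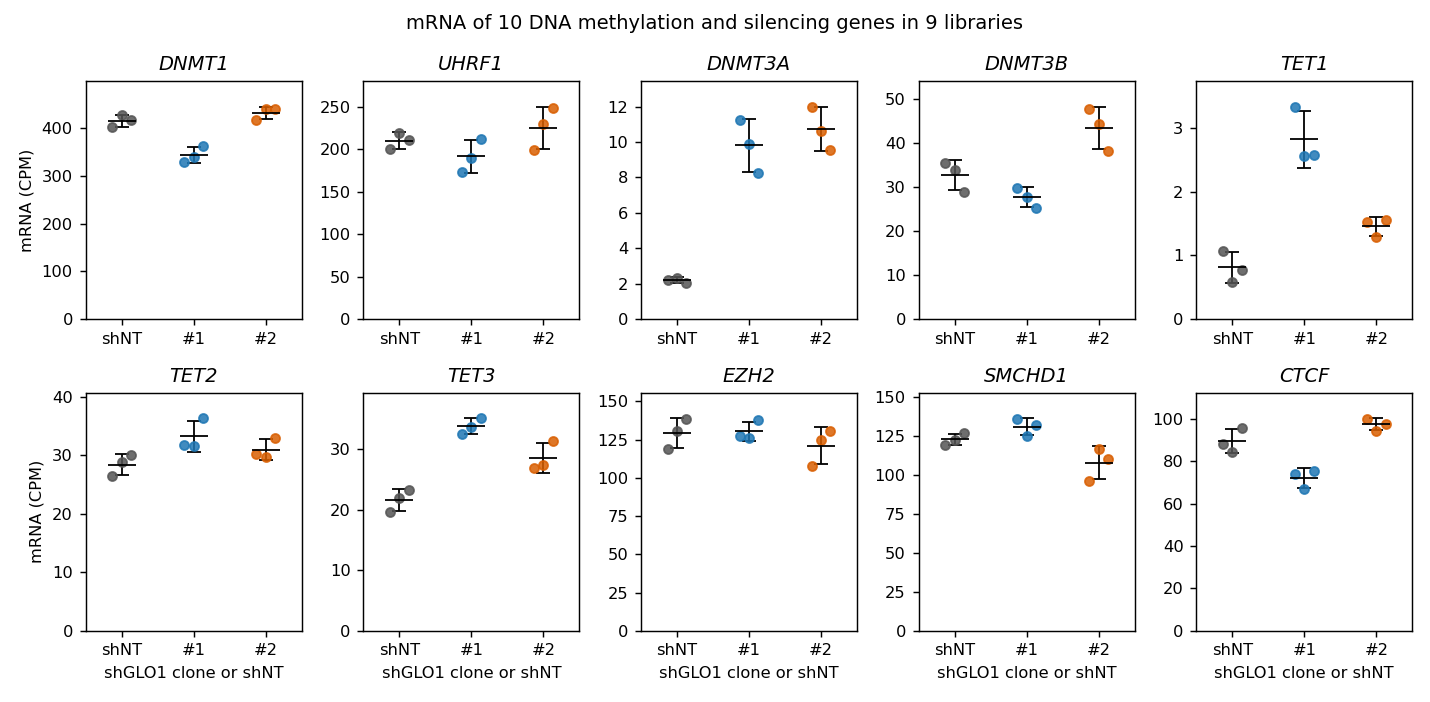
Level of each of the 10 mRNAs in CPM (vertical axis, from 0, its own scale in each panel) in the 3 shNT libraries and the 3 libraries of shGLO1 clones #1 and #2. Points are libraries in replicate order, the long bar is the group mean and the error bar the SD. All 6 shGLO1 libraries lie above all 3 shNT libraries for DNMT3A, TET1 and TET3, and the share of all genes that do so was not counted.

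DNMT3A, a de novo methyltransferase that also works in somatic cells, rose over 4-fold in both clones. In shNT its level was 2.22, 2.35 and 2.05 CPM in replicates 1, 2 and 3. In shGLO1#1 it was 11.2, 9.90 and 8.27 CPM, and in shGLO1#2 12.0, 10.6 and 9.56 CPM. The highest shNT library lay far below the lowest shGLO1 library, and the clones overlapped each other. These levels rest on 33 to 37 counts per shNT library and 145 to 197 per shGLO1 library. The rise on the log2 scale was 2.15 in shGLO1#1 (SE 0.17, adjusted p = 3.83e-07, edgeR, 95% interval 1.79 to 2.51) and 2.28 in shGLO1#2 (SE 0.17, adjusted p = 3.42e-07, edgeR, interval 1.92 to 2.64), or 4.44- and 4.87-fold. The clones differed from each other by 0.13 on the log2 scale (interval -0.16 to 0.42, edgeR adjusted p = 0.455), which did not pass the test.

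DNMT3B, the de novo enzyme best known from embryonic cells, rose in shGLO1#2 and differed between the clones. It was at 35.3, 33.8 and 28.8 CPM in shNT, at 29.8, 27.7 and 25.3 CPM in shGLO1#1 and at 47.8, 44.2 and 38.2 CPM in shGLO1#2. The shGLO1#2 libraries all lay above the others, while 1 shNT library lay inside the range of shGLO1#1. DNMT3B rose in shGLO1#2 (log2 fold change 0.41, SE 0.10, edgeR adjusted p = 0.00535), and its value in shGLO1#1 was -0.24 (SE 0.10, edgeR adjusted p = 0.0737). Without shNT replicate 3 the fall in shGLO1#1 was called, at -0.32. It was called as well with the replicate number as a block (-0.24, edgeR adjusted p = 0.00509). Between the clones the difference was 0.65 (SE 0.10, edgeR adjusted p = 1.53e-04).

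Per exon length, DNMT3B remained the more abundant of the de novo enzymes. DNMT3A made up 2.84% ± 0.181 of the sum of both in CPM per kb (shNT), 13.2% ± 0.810 (shGLO1#1) and 9.64% ± 0.217 (shGLO1#2), as mean and SD of 3 libraries. The 3 groups did not overlap in this share. Summed, the pair reached 34.9 ± 3.55 CPM (shNT), 37.4 ± 3.76 (shGLO1#1) and 54.1 ± 6.05 (shGLO1#2).

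DNMT1, the maintenance methyltransferase, had the highest level per length of the 10 members in each group. Its level was 403, 427 and 418 CPM in shNT, 331, 341 and 362 CPM in shGLO1#1 and 418, 441 and 440 CPM in shGLO1#2. The shGLO1#1 libraries lay below all the others, and shNT and shGLO1#2 overlapped. DNMT1 fell by 0.27 on the log2 scale in shGLO1#1 (SE 0.05, edgeR adjusted p = 7.06e-04), and its value in shGLO1#2 was 0.06 (interval -0.05 to 0.17, edgeR adjusted p = 0.408). The clones differed by 0.33 (edgeR adjusted p = 1.50e-04). The gene S1PR2 overlaps DNMT1 on the same strand in the GENCODE 29 annotation, and its 17 to 61 counts per library compare with 5356 to 7891 of DNMT1.

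UHRF1, the partner that brings DNMT1 to hemimethylated DNA, overlapped between all 3 groups. It was at 200, 220 and 211 CPM in shNT, 173, 189 and 213 CPM in shGLO1#1 and 199, 230 and 248 CPM in shGLO1#2. Its log2 fold change was -0.13 in shGLO1#1 (interval -0.31 to 0.05, edgeR adjusted p = 0.215) and 0.10 in shGLO1#2 (interval -0.08 to 0.28, edgeR adjusted p = 0.376). Between the clones it was 0.23 (edgeR adjusted p = 0.0351), a call that ended without shGLO1#1 replicate 1 (0.17) or 2, or shGLO1#2 replicate 2 or 3.

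**Figure D2:**
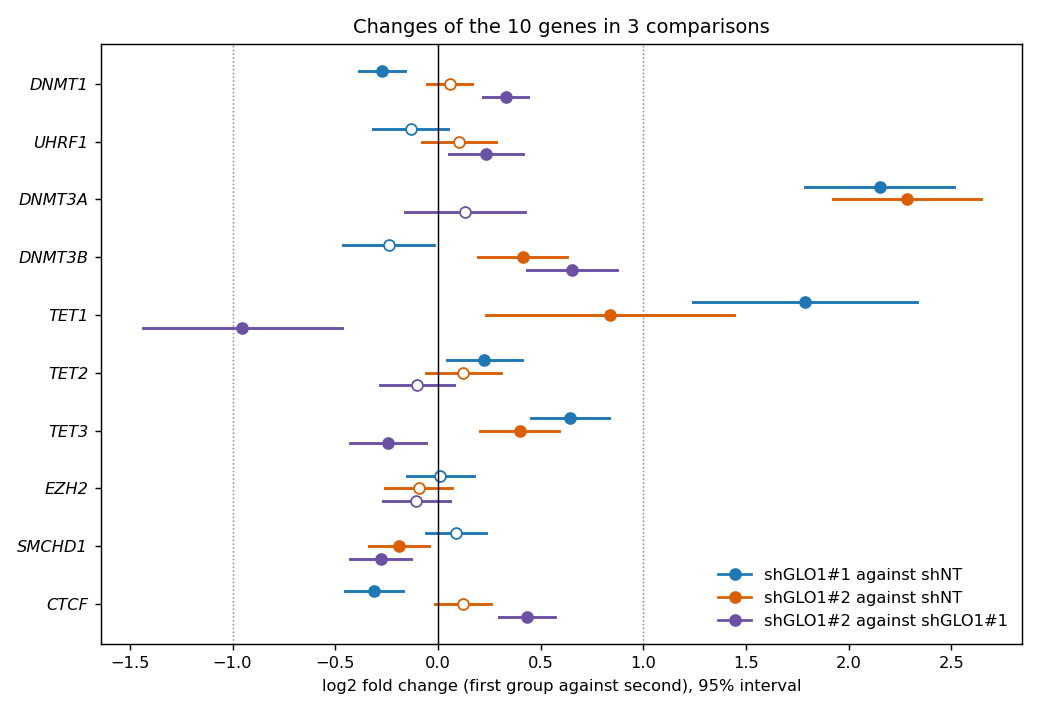
Log2 fold change (horizontal axis) of each member in 3 comparisons, first group against second, with its 95% interval as a line. Filled points passed the adjusted p of 0.05, open points did not, and dotted lines mark 2-fold; DNMT3A lies at 2.15 and 2.28 against shNT, and EZH2 is open in all 3 comparisons.

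TET1, the least abundant of the TET dioxygenases, rose in both clones from a very low level. It was at 1.08, 0.587 and 0.775 CPM in shNT, from 9 to 16 counts per library. Only 2 of the 3 shNT libraries reached the 0.606 CPM that the filter asked for. TET1 was therefore tested through the clones, where it was higher, unlike the other members. In shGLO1#1 it was at 3.33, 2.56 and 2.57 CPM, and in shGLO1#2 at 1.52, 1.28 and 1.55 CPM. All 3 groups were separate. The log2 fold change was 1.79 in shGLO1#1 (SE 0.25, interval 1.24 to 2.33, edgeR adjusted p = 6.94e-05) and 0.84 in shGLO1#2 (SE 0.28, interval 0.23 to 1.44, edgeR adjusted p = 0.0304). DESeq2 did not give the shGLO1#2 call, and it ended as well when shNT replicate 2 (0.66) or 3, or shGLO1#2 replicate 1 or 3, was left out. TET1 was lower in shGLO1#2 than in shGLO1#1 by 0.95 on the log2 scale (fold change -0.95, SE 0.23, edgeR adjusted p = 0.00353).

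TET3, the TET enzyme known for its part in the zygote, rose in both clones by under 2-fold. Its level was 19.7, 21.9 and 23.3 CPM in shNT, 32.5, 33.7 and 35.1 CPM in shGLO1#1 and 26.9, 27.4 and 31.4 CPM in shGLO1#2. The 3 groups did not overlap. The log2 fold change was 0.64 in shGLO1#1 (SE 0.09, edgeR adjusted p = 5.67e-05) and 0.40 in shGLO1#2 (SE 0.09, edgeR adjusted p = 0.00296). The difference between the clones, -0.24 (edgeR adjusted p = 0.0335), lost its call without shGLO1#1 replicate 2 or 3, or shGLO1#2 replicate 1 or 2.

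TET2, a tumor suppressor often mutated in blood cancers, changed least of the TET genes in shGLO1#1. It was at 26.4, 28.9 and 30.1 CPM in shNT, 31.8, 31.7 and 36.4 CPM in shGLO1#1 and 30.2, 29.8 and 33.0 CPM in shGLO1#2. The shGLO1#1 libraries lay above shNT, and those of shGLO1#2 overlapped both. The log2 fold change was 0.23 in shGLO1#1 (SE 0.08, edgeR adjusted p = 0.0422) and 0.12 in shGLO1#2 (interval -0.06 to 0.30, edgeR adjusted p = 0.283). The shGLO1#1 call was absent under DESeq2 and when low counts were not filtered, and it ended without shNT replicate 1 or 2 or any 1 of the shGLO1#1 libraries (values of 0.16 to 0.27 over all alternatives). The antisense gene TET2-AS1, whose reads cannot be told from those of TET2 without strand, had 0 to 2 counts.

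Summed over the 3 TET genes, shNT libraries held 50.9 ± 3.49 CPM, shGLO1#1 libraries 69.9 ± 3.63 and shGLO1#2 libraries 61.0 ± 4.28 (SD, n = 3). The groups did not overlap (highest shNT library 54.1, lowest shGLO1#2 library 58.5 and highest 66.0, lowest shGLO1#1 library 67.7). TET3 and TET2 together held most of it. Per length, TET1 made up 2.34% ± 0.852 of the 3 genes in shNT, 5.68% ± 1.05 in shGLO1#1 and 3.39% ± 0.293 in shGLO1#2.

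EZH2, the catalytic subunit of PRC2, passed the test in none of the 3 comparisons. It was at 119, 131 and 138 CPM in shNT, 128, 126 and 138 CPM in shGLO1#1 and 108, 125 and 131 CPM in shGLO1#2, and all 3 groups overlapped. The log2 fold change was 0.01 in shGLO1#1 (interval -0.15 to 0.18), -0.09 in shGLO1#2 (interval -0.26 to 0.07) and -0.11 between the clones (interval -0.27 to 0.06). The 3 intervals all include 0 and lie inside 2-fold.

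SMCHD1 was lowest in shGLO1#2. Its level was 119, 123 and 127 CPM in shNT, 136, 125 and 132 CPM in shGLO1#1 and 96.1, 117 and 110 CPM in shGLO1#2. The shGLO1#2 libraries lay below all the others, while shNT and shGLO1#1 overlapped. The log2 fold change was 0.09 in shGLO1#1 (edgeR adjusted p = 0.302) and -0.19 in shGLO1#2 (SE 0.07, edgeR adjusted p = 0.0435). The latter call was lost in 12 of 16 alternative settings, with values from -0.24 to -0.11. Between the clones the difference of -0.28 (SE 0.07, edgeR adjusted p = 0.00444) kept its call in all 16.

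CTCF was lowest in shGLO1#1. It was at 88.4, 84.6 and 95.6 CPM in shNT, 73.9, 67.0 and 75.6 CPM in shGLO1#1 and 100.2, 94.4 and 97.9 CPM in shGLO1#2. The shGLO1#1 libraries lay below all the others, and shNT and shGLO1#2 overlapped. CTCF fell by 0.31 on the log2 scale in shGLO1#1 (SE 0.06, edgeR adjusted p = 0.00144), and its value in shGLO1#2 was 0.12 (interval -0.02 to 0.26, edgeR adjusted p = 0.152). With upper-quartile factors the latter was called, at 0.17 (edgeR adjusted p = 0.0430). The clones differed by 0.43 (SE 0.06, edgeR adjusted p = 1.02e-04).

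Compared directly, shGLO1#2 and shGLO1#1 differed in 7 of the 10 members, at a background of 46.5% of all genes. DNMT1, DNMT3B, UHRF1 and CTCF were the 4 higher in shGLO1#2 (background 22.8%), and TET1, TET3 and SMCHD1 the 3 lower (background 23.7%). None of the 10 passed 2-fold as well, beside 7.09% of all genes, and TET1 passed it without shGLO1#1 replicate 2 or 3. DNMT3A, TET2 and EZH2 did not pass the test of this difference.

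Levels of different members were compared only per length, in CPM per kb of union exon (GENCODE 29). In shNT, DNMT1 was at 76.2 CPM per kb, EZH2 at 42.2, UHRF1 at 40.9, CTCF at 19.0, SMCHD1 at 13.9 and DNMT3B at 7.05. TET3 (1.88) and TET2 (1.81) lay below these, then DNMT3A (0.205) and TET1 (0.0875). EZH2 and UHRF1 did not differ beyond their spread in any group, and UHRF1 came before EZH2 in shGLO1#2. CTCF and SMCHD1 overlapped in shGLO1#1. TET3 and TET2 overlapped in shNT, and their order turned with the length of the longest transcript. DNMT3A and TET1, the most changed members, kept the lowest places in every group, at 0.913 and 0.303 CPM per kb in shGLO1#1 and 0.999 and 0.156 in shGLO1#2.

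**Figure D3:**
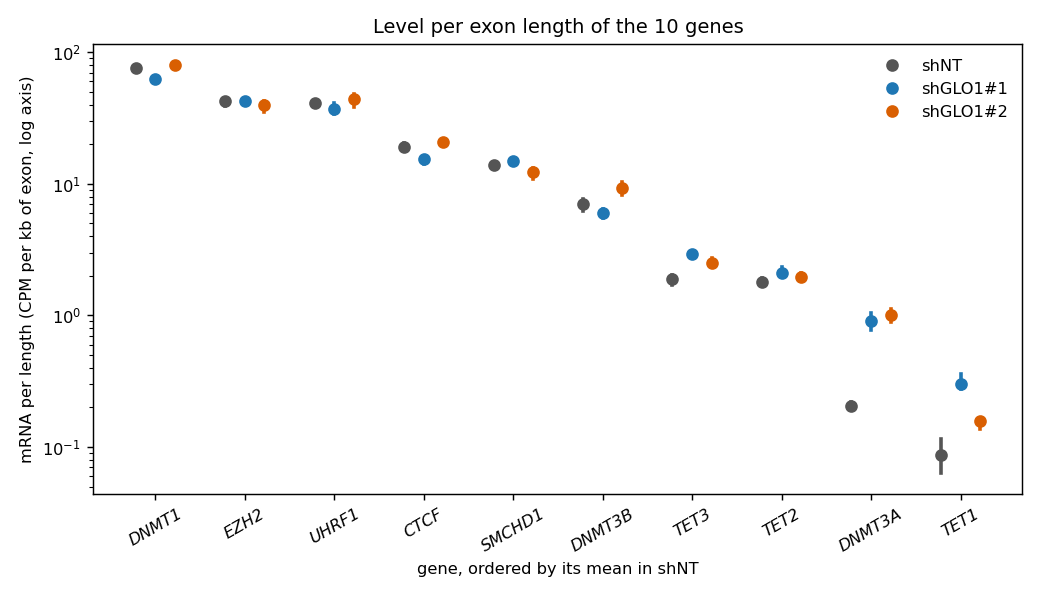
Level per length (CPM per kb of exon, log axis) of the 10 members in order of their shNT mean, with the group mean as a point and the range of 3 libraries as a line. DNMT3A and TET1 hold the lowest 2 places in every group, and DNMT1 the highest.

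UHRF1, DNMT1 and EZH2 are known targets of E2F factors and are expressed most in dividing cells, so genes of proliferation are given beside them. Of 20 S phase and mitosis genes tested, 10 fell and 0 rose in shGLO1#1 (median log2 fold change -0.21, beside 23.1% of all genes lower), 4 rose and 4 fell in shGLO1#2 (median -0.04, beside 18.3% of all genes higher and 19.8% lower). Between the clones 13 were higher and 1 lower in shGLO1#2 (median 0.21, beside 22.8% and 23.7%). MKI67, the Ki-67 antigen of cycling cells, went from 977 ± 55.9 CPM (shNT) to 629 ± 10.4 (shGLO1#1) and 769 ± 21.0 (shGLO1#2), a fall of 0.64 on the log2 scale in shGLO1#1 (edgeR adjusted p = 5.25e-07) and of 0.35 in shGLO1#2 (edgeR adjusted p = 1.22e-04). DNMT1 and CTCF fell in the clone where 10 of the 20 fell, while UHRF1 (-0.13) and EZH2 (0.01) were not called there. The part of proliferation in the members' values was not tested.

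Promoter windows were searched for an E2F-type motif, spelled TTTGGCGC, TTTCGCGC, TTTGCCGC or TTTCCCGC, on both strands. It lies in 3.31% of the 35116 windows and, among the members, in those of DNMT1, UHRF1 and EZH2. The DNMT1 window and the UHRF1 window with the match nearest to its start are shown with the match in capitals, since these genes act together.

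DNMT1 promoter, chr19:10194904-10195203, minus strand: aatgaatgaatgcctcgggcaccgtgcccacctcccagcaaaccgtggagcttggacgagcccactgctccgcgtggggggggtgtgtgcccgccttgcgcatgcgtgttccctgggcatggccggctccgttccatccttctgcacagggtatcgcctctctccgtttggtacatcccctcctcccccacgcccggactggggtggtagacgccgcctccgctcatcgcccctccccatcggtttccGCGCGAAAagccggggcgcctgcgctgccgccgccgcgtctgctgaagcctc

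UHRF1 promoter, chr19:4909251-4909550, plus strand: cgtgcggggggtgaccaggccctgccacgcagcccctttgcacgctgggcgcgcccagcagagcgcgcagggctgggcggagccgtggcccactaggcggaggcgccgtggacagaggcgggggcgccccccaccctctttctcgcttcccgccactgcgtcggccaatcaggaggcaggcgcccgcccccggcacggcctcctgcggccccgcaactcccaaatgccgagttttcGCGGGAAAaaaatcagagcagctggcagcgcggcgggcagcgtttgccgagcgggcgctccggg

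In DNMT1 the match begins at position -2 from the start site and in UHRF1 at -14, with a further match at -160 in the window of another UHRF1 start. In EZH2 it begins at position 2. The DNMT1 and UHRF1 starts shown lie inside the genes as annotated in GENCODE 29 (chr19:10133345-10231286 and chr19:4903080-4962154). A match is a description of these letters and does not show that a factor binds there.

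Partner genes of the members were followed by list. The counts below stand beside background shares of 22.6% (higher) and 23.1% (lower) for shGLO1#1 and of 18.3% and 19.8% for shGLO1#2, and nothing is read from them for a list as a whole. Of 12 genes of PRC2 and of histone H3 lysine 27 demethylation, 3 rose and 2 fell in shGLO1#1, and 2 rose and 2 fell in shGLO1#2. The RBBP4 subunit, a histone binder, rose in both clones (157 ± 5.60 CPM in shNT, 195 ± 3.90 and 200 ± 7.93 in shGLO1#1 and #2, log2 fold changes 0.32 and 0.35). Of 17 PRC1 genes, 5 rose and 4 fell in shGLO1#1, and 5 rose and 2 fell in shGLO1#2. The subunit PHC1 rose in both (0.60 and 0.46) and the subunit PCGF5 fell by 0.27 and 0.49.

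The list of 8 tested partners of DNA methylation also holds TRDMT1, a tRNA methyltransferase gene. Of the 8, 1 rose and 2 fell in shGLO1#1 (HELLS and TRDMT1, the latter by 0.34), and 2 rose and 0 fell in shGLO1#2. HELLS, a chromatin remodeler needed for methylation of repeats, was at 55.9 ± 2.09 CPM (shNT), 42.8 ± 1.24 (shGLO1#1) and 69.3 ± 4.58 (shGLO1#2). It fell by 0.39 in shGLO1#1 (edgeR adjusted p = 3.23e-04) and rose by 0.31 in shGLO1#2 (edgeR adjusted p = 0.00177). Among 15 genes of 5-methylcytosine removal and 2-oxoglutarate supply, 4 rose and 3 fell in shGLO1#1, and 3 rose and 1 fell in shGLO1#2. OGT, the O-GlcNAc transferase that binds TET2 and TET3, was at 259 ± 7.03 CPM in shNT, rose to 306 ± 3.75 in shGLO1#1 (log2 fold change 0.24, edgeR adjusted p = 0.00364) and fell to 157 ± 12.4 in shGLO1#2 (-0.72, edgeR adjusted p = 7.30e-07).

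A list of 10 genes for methyl-CpG binding proteins and their relatives had 4 that rose and 3 that fell in shGLO1#1, and 3 and 3 in shGLO1#2. It includes KDM2B, which binds unmethylated CpG and was among those that rose in shGLO1#1 (0.38), and MBD3, MBD5 and MBD6, which bind methylated DNA poorly or not at all. The methyl-CpG binding protein gene MBD1 fell by 0.43 in shGLO1#1 and by 0.90 in shGLO1#2, from 84.6 ± 1.39 CPM in shNT to 62.9 ± 4.56 and 45.2 ± 4.64. MBD2, which recruits the NuRD deacetylase complex, fell by 0.44 and 0.85. ZBTB33 (Kaiso) rose by 0.68 and 0.43. Of 8 tested genes of the methyl donor cycle, 2 rose and 1 fell in shGLO1#1, and 2 rose and 2 fell in shGLO1#2. The methionine synthase gene MTR rose in both (0.50 and 0.38).

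Of 15 genes of silencing through histone H3 lysine 9, 4 rose and 1 fell in shGLO1#1, and 6 rose and 0 fell in shGLO1#2. CBX5 (HP1 alpha), which binds the methylated lysine, fell by 0.24 in shGLO1#1 (edgeR adjusted p = 0.00438) and rose by 0.56 in shGLO1#2 (edgeR adjusted p = 6.45e-06). Of 15 tested genes of cohesin and chromosome architecture, the partners of CTCF and SMCHD1, 2 rose and 6 fell in shGLO1#1, and 3 rose and 2 fell in shGLO1#2. The cohesin subunit SMC3 fell by 0.29 and 0.30, and the cohesin release factor WAPAL by 0.31 and 0.34. Of 13 histone deacetylase and NuRD genes, 5 rose and 1 fell in shGLO1#1, and 5 rose and 2 fell in shGLO1#2, with the deacetylase HDAC1 at 0.21 and 0.50 and the NuRD subunit MTA3 at 0.93 and 0.42, both called in each clone.

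**Figure D4:**
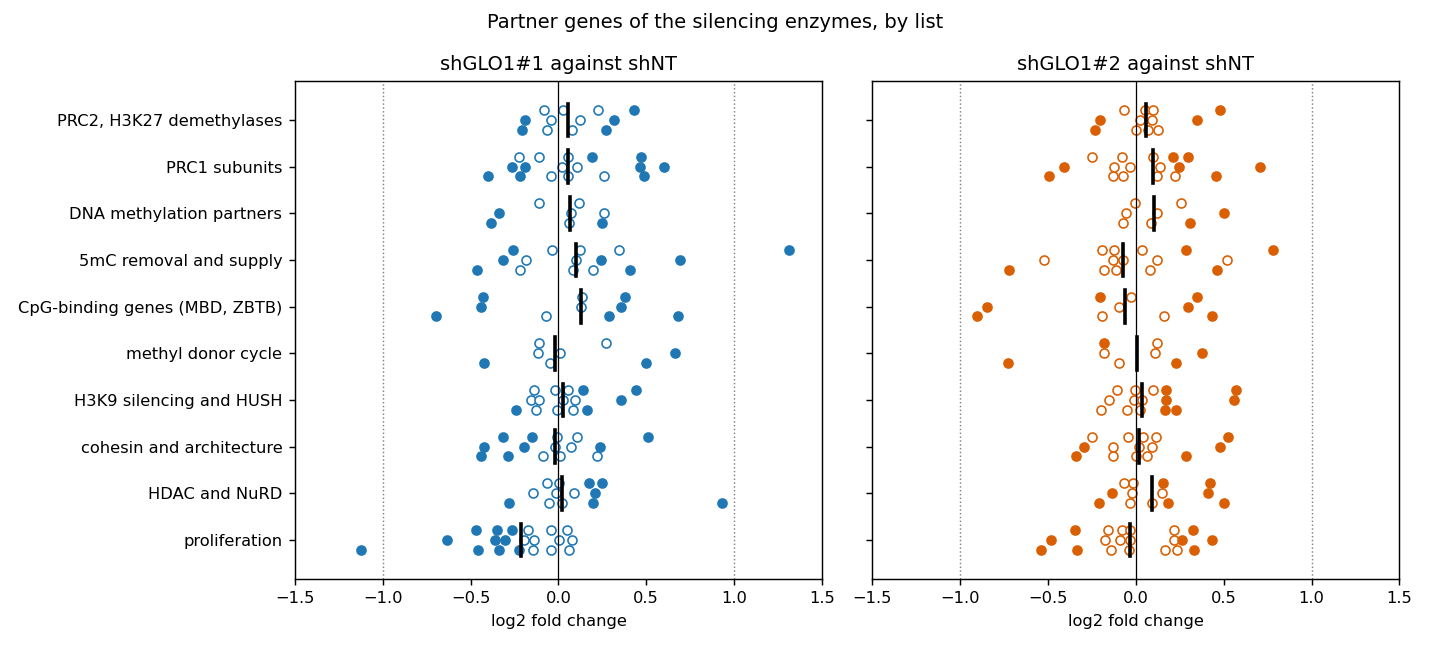
Log2 fold change (horizontal axis) of the tested genes of 10 lists around the members, in shGLO1#1 (left) and shGLO1#2 (right) against shNT. Each point is a gene, filled where the adjusted p was under 0.05, a black bar is the list's median and dotted lines mark 2-fold; the proliferation list has a median of -0.21 in shGLO1#1 and -0.04 in shGLO1#2.

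Clustered gene families were set beside these candidate regulators. Protocadherin genes are known to depend on SMCHD1 and MAGE genes on DNA methylation in other cells. Many genes of these families had too few counts for the filter in shNT or in the clones and were tested only through the group where they were high, so no count over a family is given. Of the beta protocadherins, clustered cell adhesion genes, PCDHB14 was at 2.64 CPM in shNT (2.08 to 3.13 over libraries), 9.33 in shGLO1#1 (8.81 to 9.81) and 8.13 in shGLO1#2 (7.69 to 8.65). PCDHB5, which was too low to be tested, was at 0.303, 0.195 and 0.0778 CPM in the same order. Of the pregnancy-specific glycoproteins, near-identical genes between which reads may be split, PSG9 was at 29.3 ± 4.74, 1.66 ± 0.126 and 1.44 ± 0.538 CPM. PCDHB14 and PCDHB5 were chosen after their values were seen. These clusters were picked with their values in these libraries known, and a link between them and DNMT3A, SMCHD1 or CTCF was not tested.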

How the data were processed

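Total RNA of 9 MDA-MB-231 libraries was sequenced with a TruSeq kit that does not mark strand. Per the labels and the submitters' processing notes, the authors used bcl2fastq 2.17, TopHat2 2.1.1 with hg19 and HTSeq, and deposited raw counts per gene symbol. For HTSeq the version, annotation and strand setting were not given in the sources used here. Libraries held 15314238 to 18495576 gene counts, and 20.5 to 22.9% of counted alignments, in 5 rows that name no gene, were left out.

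The analysis used edgeR 4.0.16 under R 4.3.3. The filterByExpr function (at least 10 counts, 15 in total) selected the genes, TMM factors were 0.972 to 1.04, and a quasi-likelihood fit of all 9 libraries gave 3 comparisons. CPM were computed on TMM-scaled library sizes. SE is the absolute log2 fold change over the square root of F. The scripts were tested on simulated data. Alternatives were RLE and upper-quartile factors, no filter, a mean of 1 CPM, DESeq2 1.42.0, only the 2 groups compared, a replicate block and leaving out each library. No library pair of a group was identical (chi-square per degree of freedom 3.11 to 8.64).

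Replicate numbers were checked by the correlation of same-numbered deviations from group means, 0.21, 0.19 and 0.31 for shGLO1#2 and shNT. All were over 0.1, so these libraries were taken as paired, from the data alone. They were -0.03, 0.06 and 0.25 for shGLO1#1 and shNT, and 0.20, 0.07 and 0.34 between the clones. The members, the gene lists and the rules were chosen with earlier results of these data known. Named were GLO1, the members, overlapping genes and, per list, up to 4 genes called in both clones in 1 direction and up to 2 in opposite directions. Of these, genes whose call ended under an alternative are mostly counted, not named, and 1 further gene is not reported here. Exon lengths (GENCODE 29) and promoters (RefSeq GRCh38.p14) come from another build than the alignment and served for lengths and sequences only.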

Additional observations from a re-analysis of the deposited data

Results flagged for a closer look

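The levels of the genes below differed between the 2 clones by the edgeR test of shGLO1#2 against shGLO1#1. Values are log2 fold changes of shGLO1#2 against shGLO1#1. GLO1 itself was lower in shGLO1#2 (-2.15), so the clones differ in the depth of silencing as well as in line, and these cannot be told apart. Among the members, DNMT1 (0.33), DNMT3B (0.65), UHRF1 (0.23) and CTCF (0.43) were higher in shGLO1#2, and TET1 (-0.95), TET3 (-0.24) and SMCHD1 (-0.28) were lower.

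Among partner genes, AEBP2 (0.21), CBX6 (0.52), CDCA7 (0.25), HELLS (0.69), CBX5 (0.80), HDAC1 (0.29) and MKI67 (0.29) were higher in shGLO1#2. PCGF5 (-0.23), RNF2 (-0.21), OGT (-0.96), MBD2 (-0.41), ZBTB33 (-0.25), MBD1 (-0.48), ZBTB4 (-0.49) and MTA3 (-0.51) were lower. Of the clustered genes, MAGEC2 (1.97) was higher in shGLO1#2, and PCDHB6 (-1.13) and MAGEC1 (-2.20) were lower. The filter asked for 0.606 CPM, and in shGLO1#2 PCDHB6 reached at most 0.496 CPM and MAGEC1 at most 0.558. PCDHB6 had 4 counts in all in shNT, so it was tested only through shGLO1#1, and nothing is read from its value. The calls of RNF2 (10 of 16 alternatives), PCDHB6, AEBP2 and CDCA7, and of UHRF1 and TET3 among the members, ended under some alternatives.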

How the results depend on the processing

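Of the log2 fold changes of the members and GLO1 over 16 alternatives in 3 comparisons, 490 kept direction and side of the threshold, 32 lost a call, 4 gained one and 2 changed sign. The sign changes were those of EZH2 in shGLO1#1, -0.046 without shNT replicate 1 and -0.030 without shGLO1#1 replicate 3, in a range of -0.046 to 0.068 when 1 library was left out. The number of members called in shGLO1#2 against shNT, 5, was 3 with DESeq2 and 3 to 5 when 1 library was left out (3 without shNT replicate 2 or 3, or shGLO1#2 replicate 1 or 3). Called and over 2-fold, it was 1 to 2 in shGLO1#2 against shNT (2 without shNT replicate 1) and 0 to 1 between the clones (1 without shGLO1#1 replicate 2 or 3). Leaving out 1 library gave 5 to 7 members called in shGLO1#1 against shNT and 5 to 7 between the clones. Another scaling moved the median of all genes by at most 0.05. Fits with the replicate number as a block called 8 members in shGLO1#1 against shNT, adding DNMT3B (-0.24, edgeR adjusted p = 0.00509) and UHRF1 (-0.14, edgeR adjusted p = 0.0329). Same-numbered correlations of these libraries were -0.03, 0.06 and 0.25, not all over 0.1, so pairing was left unsettled there. The libraries of shGLO1#2 and shNT were taken as paired, though the main fit had no block. With the block no member's call changed in shGLO1#2 against shNT, and 5 were called. The precision of TET1 is limited by its 9 to 16 counts per shNT library. Of the partner and cluster genes named by rule, 106 values lost a call, 1482 did not and 0 changed sign. The counts per list moved by over 1.5 times in 147 cases and not in 1101, and the cause was not tested. For example, over all settings 0 to 2 deacetylase and NuRD genes were lower in shGLO1#2, 0 to 2 PRC2 genes lower and 0 to 3 methylation partners higher in shGLO1#1, and 7 to 13 proliferation genes lower in shGLO1#1.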
